A study of Mus musculus with 2 samples.

Results

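Partial hepatectomy (PH) removes part of the liver and makes the remaining hepatocytes enter the cell cycle. The 8 genes described here are the nuclear receptors Ppard, Ppara and Pparg, their partner receptors Rxra, Rxrb and Rxrg, and the coactivators Ppargc1a and Ppargc1b. They were found by symbol among the 33224 gene symbols of the deposited table, and each had 1 row and no joint row. Liver RNA of wild type (WT) and PPARbeta-null (KO) male C57BL/6 mice was sequenced, with 1 library per genotype, and the comparison asks how the loss of PPARβ changes hepatic mRNA during regeneration. The time, 48 hr after PH, comes from the text of the study and not from the sample labels. The labels give an age of 4 months for both, the design text 3 months and the housing protocol 3 to 5 months. How the null allele was made and how many livers entered each library are not given in the sources used here.

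Peroxisome proliferator-activated receptors (PPARs) are transcription factors that fatty acids and their derivatives switch on. Each binds DNA together with a retinoid X receptor (RXR), at a direct repeat of a short unit with a single base between the copies. PPARα, encoded by Ppara, is the main regulator of fatty acid oxidation in hepatocytes, PPARγ, encoded by Pparg, drives fat storage, and PPARβ, encoded by Ppard and also called PPARδ, is expressed in most tissues. The PGC1 coactivators, PGC1α from Ppargc1a and PGC1β from Ppargc1b, bind these receptors and other factors and raise transcription of genes of mitochondria and, in the fasted liver, of gluconeogenesis.

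None of the 8 genes differed by 2-fold between the libraries. FPKM counts sequenced fragments after scaling for exon length and for the size of the library, and every level below is an FPKM. The range of the 8 log2 differences, taken as log2((KO + 0.1)/(WT + 0.1)), was -0.50 to 0.32, with a median of -0.10. Rxra, Rxrg and Ppara were higher in KO, and Ppard, Rxrb, Pparg, Ppargc1a and Ppargc1b were lower. The count past 2-fold was 0 of 8, where 12.0% of the 15727 genes whose FPKM averaged 0.1 or more passed 2-fold, 2.08% being higher and 9.94% lower in KO. The count past 1.5-fold was also 0 of 8, where 27.8% of all those genes passed it. The count lower in KO was 5 of 8, where 74.8% of all those genes were lower. With 1 library per genotype there is no replicate error, so no p-value can be given and a difference between the libraries cannot be told apart from a difference between animals.

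Most genes were lower in the KO library, and the direction of the smaller differences depends on whether this shift is taken out. Whether the shift is one of scale or of many genes was not tested, and with libraries set to equal sums of FPKM the median was still -0.20. For the 11723 genes whose FPKM averaged 1 or more, here called expressed, the log2 difference had a median of -0.24, so each member is also given relative to this median. Of the 15727 genes that averaged 0.1 or more, those past 2-fold were 327 higher and 1563 lower as deposited, and 514 higher and 1080 lower relative to this median. Among the 8 genes, 5 were then higher in KO and 3, namely Pparg, Ppargc1a and Ppargc1b, were lower. The library names in the table put WT in lane 2 and KO in lane 3, so that sequencing lane and genotype cannot be told apart. The number of fragments behind a gene was estimated from the smallest FPKM steps of single-exon genes, in a window set after the values were seen, which gave 53.0 fragments per kilobase in WT and 54.9 in KO for a level of 1. The 95% intervals below are exact Clopper-Pearson intervals on those estimated fragments and cover counting error only. They hold a KO/WT ratio of 1 for Ppard, Ppara, Rxrb and Rxrg and lack it for the other 4 of the 8 genes. A ratio of 1 is taken on the deposited scale, on which most genes were lower in KO. For all genes the share of intervals that lack 1 was not computed, so the count describes these genes only.

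Hepatocyte markers were high in both libraries, with a summed FPKM of 6 markers of 13957 in WT and 13581 in KO. Within this list Cyp3a11 was at 3926 in WT and 2202 in KO, Cps1 at 1597 and 743, and Fgb at 2698 and 4534, so that its members went both ways. The sum over 6 macrophage markers was 52.8 in WT and 33.8 in KO, over 6 endothelial markers 28.4 and 17.5, and over 6 stellate cell markers 29.3 and 17.2. In each of these 3 lists 5 of 6 genes were lower in KO, a share near the 74.8% of all genes that were lower. The exceptions were Marco, Tek and Hgf. The median log2 differences of the 3 lists were -0.79, -0.72 and -0.55, against -0.24 for expressed genes. The sum over 6 cholangiocyte markers was 29.8 in WT and 25.7 in KO, mostly from Spp1, while Krt19 was at 1.72 and 0.559. All 5 of them that averaged 0.1 or more were lower in KO, with a median of -0.57. For 6 erythroid markers the sum was 157 and 140, mostly from Hbb-b1, while Alas2 was at 20.6 and 37.5. For 6 lymphocyte markers it was 0.581 and 0.412. The sum over 6 adipocyte markers was 2.20 in WT and 0.289 in KO, mostly from Adrb3, and over the 5 muscle markers found it was 0.668 and 0.271, mostly from Mylpf. Adipoq, Plin1, Lep, Ckm and Myh4 had an FPKM of at most 0.0256 in either library. In whole liver, fewer cells of a type and less RNA per cell cannot be told apart.

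**Figure D1:**
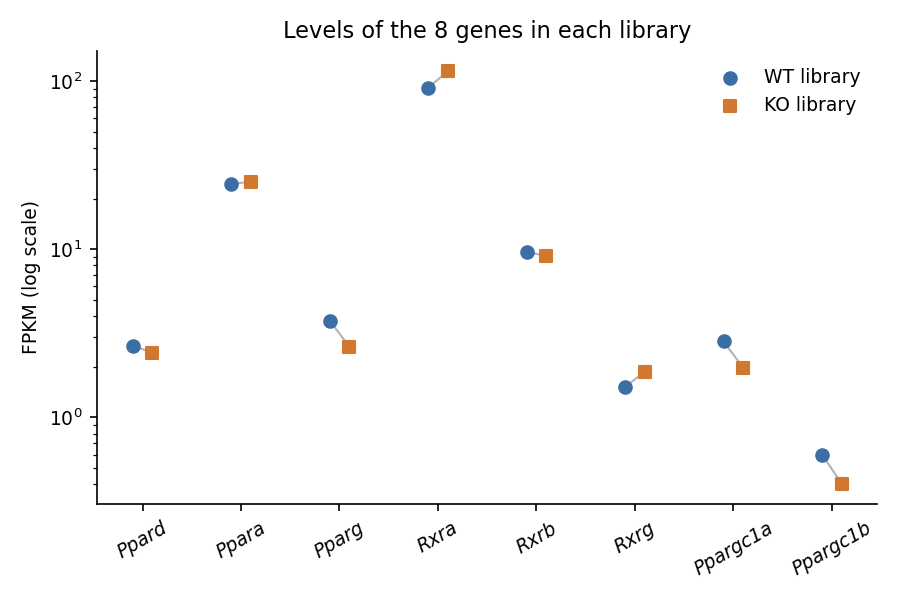
FPKM on a log axis of the 8 genes in the WT library (circles) and the KO library (squares), 1 value each. Rxra has the highest level (91.2 and 114) and Ppargc1b the lowest (0.600 and 0.404), and the gap between genes is far wider than the gap between the libraries.

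Because the receptors of a family are related in sequence, the coding parts of the members were first compared to see how far a read could be shared. Coding sequences were identical at 67.3% to 69.6% of aligned bases between PPARs, at 73.3% to 75.8% between RXRs and at 62.7% between the PGC1 pair. The longest identical run between 2 members was 29 bases, against a read length of 100 bases in the labels. The runs below are shown because they are the longest of the RXRs and those of the PPAR pairs that share their run in coding sequence. The runs of 27 bases between Rxra and Rxrg and of 20 bases between Rxrb and Rxrg are not printed. Capitals mark the bases that both genes share without a break and lower case the 20 bases on each side, all coding and read from GENCODE vM1 transcripts on NCBIM37 (mm9).

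The pair Ppard and Pparg shares 17 bases in the last coding exon of each, exon 8 of 8, at chr17:28436736-28436792 and chr6:115440155-115440211 on the plus strand.
Ppard: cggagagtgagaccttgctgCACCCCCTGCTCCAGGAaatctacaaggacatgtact
Pparg: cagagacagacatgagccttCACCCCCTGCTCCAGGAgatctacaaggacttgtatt

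The pair Ppara and Pparg shares 13 bases in exon 7 of 8, at chr15:85628602-85628654 and chr6:115423238-115423290 on the plus strand.
Ppara: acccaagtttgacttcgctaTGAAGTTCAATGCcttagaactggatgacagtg
Pparg: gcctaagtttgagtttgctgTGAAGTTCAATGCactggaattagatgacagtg

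The pair Rxra and Rxrb shares the longest run, 29 bases, in exon 10 of 10, at chr2:27615096-27615164 and chr17:34174364-34174432 on the plus strand.
Rxra: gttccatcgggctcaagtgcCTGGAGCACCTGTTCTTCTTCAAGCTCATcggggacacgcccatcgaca
Rxrb: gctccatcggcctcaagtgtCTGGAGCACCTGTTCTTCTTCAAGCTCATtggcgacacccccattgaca

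In each pair the flanks already differ, so that no stretch as long as a read is the same in 2 members.

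Ppard is the gene that the KO mice lack in function. Its locus (chromosome 17, 28369699 to 28438414, plus strand, 8 exons in its longest coding transcript) had FPKM values of 2.67 in WT and 2.42 in KO. These are an estimated 456 and 428 fragments, and the KO/WT ratio was 0.906 with an interval of 0.792 to 1.04. The log2 difference was -0.14, and relative to the median of expressed genes it was 0.10 higher. The locus sum therefore did not separate the libraries, and the table gives no value per exon from which the library labelled KO could be checked. Among the 8 genes Ppard held rank 6 in WT and rank 5 in KO, changing places with Ppargc1a.

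Ppara (chromosome 15, 85565413 to 85633249, plus strand) was the most abundant PPAR, at FPKM values of 24.4 in WT and 25.2 in KO. The ratio was 1.03 with an interval of 0.990 to 1.08. Its log2 difference of 0.05 was higher than that of 78.4% of the 15727 genes that averaged 0.1 or more. Most of those genes were lower in KO. The table's locus also spans 2210021J22Rik, a gene on the other strand with FPKM values of 5.19 in WT and 3.47 in KO, with which Ppara shares no annotated exon base.

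Pparg (chromosome 6, 115311239 to 115440419, plus strand) had FPKM values of 3.76 in WT and 2.64 in KO. The ratio was 0.702 with an interval of 0.598 to 0.824, on an estimated 370 and 269 fragments. Its log2 difference was -0.49, or -0.26 relative to the median of expressed genes. Among the 15727 genes that averaged 0.1 or more, 28.1% were lower still. Pparg is also expressed in macrophages and fat cells. Macrophage markers were lower in KO in 5 of 6 genes, near the 74.8% of all genes. Their median log2 difference was -0.79, against -0.24 for expressed genes. Csf1r was at 3.98 in WT and 1.64 in KO, and Clec4f, a Kupffer cell lectin, at 17.3 and 10.6. The part of macrophages in the value of Pparg was not tested. Adipoq and Plin1, which define fat cells, were at or near 0 in both libraries, while Adrb3 was at 1.75 in WT and 0.289 in KO.

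Within the PPAR family the makeup is free of any scaling of the library. The summed FPKM of the 3 PPARs was 30.8 in WT and 30.2 in KO. Ppara made up 79.1% of the sum in WT and 83.3% in KO, a difference of 4.12 points (counting SE 0.87). Pparg made up 12.2% and 8.73%, a difference of -3.46 points (counting SE 0.76). Ppard made up 8.67% and 8.01%, a difference of -0.66 points (counting SE 0.54). Pparg was 1.41 times the level of Ppard in WT and 1.09 times in KO.

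**Figure D2:**
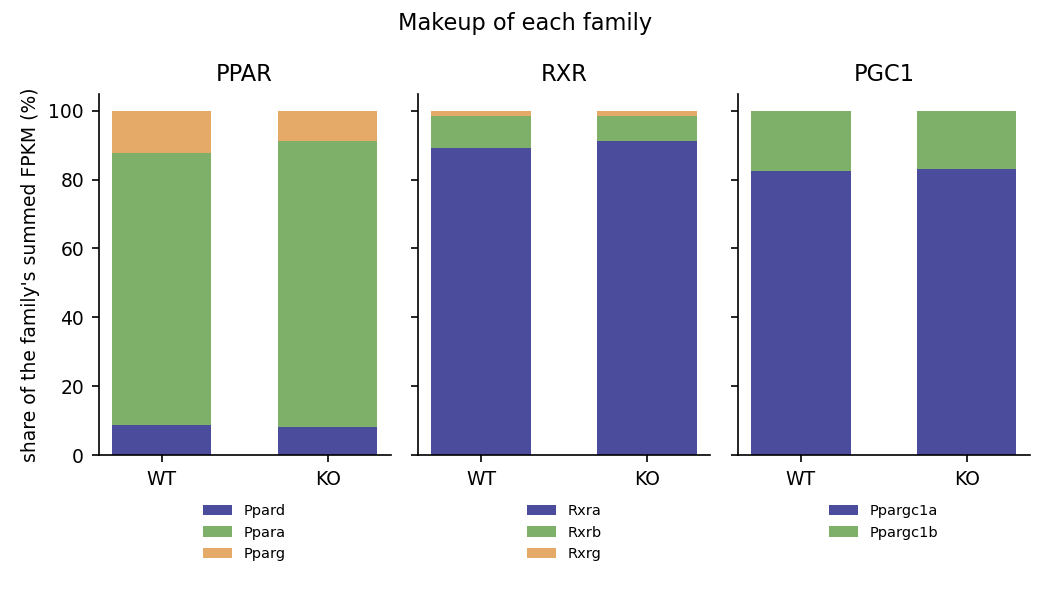
Stacked bars of the share of each gene in the summed FPKM of its family (percent), WT and KO library side by side, for the PPAR, RXR and PGC1 families. Ppara takes 79.1% of the PPAR sum in WT and 83.3% in KO, Rxra takes 89.1% and 91.2% of the RXR sum, and the PGC1 shares lie within 0.48 points of each other.

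Rxra encodes RXRα, the partner that most liver receptors use. Its locus (chromosome 2, 27531960 to 27618477, plus strand) had FPKM values of 91.2 in WT and 114 in KO, the highest level of the 8 genes in both libraries. The ratio was 1.25 with an interval of 1.23 to 1.27, on an estimated 23734 and 30711 fragments. The log2 difference was 0.32, or 0.56 relative to the median of expressed genes. Among the 15727 genes that averaged 0.1 or more, 90.7% had a lower one. With libraries set to equal upper quartiles the log2 difference of Rxra was 0.60, which passes 1.5-fold.

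Rxrb (chromosome 17, 34168757 to 34175338, plus strand) had FPKM values of 9.60 in WT and 9.15 in KO. The ratio was 0.953 with an interval of 0.883 to 1.03. The sign of its log2 difference, -0.07, turned to 0.17 relative to the median of expressed genes, as that of Ppard did. Its locus in the table also spans H2-Ke6 and Slc39a7 on the other strand, which share 1 row with FPKM values of 71.0 in WT and 74.6 in KO and no annotated exon base with Rxrb.

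Rxrg (chromosome 1, 169528515 to 169569754, plus strand), known mainly from muscle and brain, had FPKM values of 1.52 in WT and 1.87 in KO. The ratio was 1.23 with an interval of 0.999 to 1.51, on an estimated 170 and 216 fragments. Of the skeletal muscle markers, Ckm, Myh4 and Pvalb were listed at 0 in both libraries, Tnnt3 was at 0.0463 in WT and 0 in KO, and Mylpf at 0.621 and 0.271, and their part in the value of Rxrg was not tested.

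The summed FPKM of the RXRs was 102 in WT against 125 in KO (ratio 1.22). Rxra made up 89.1% of it in WT and 91.2% in KO, a difference of 2.05 points (counting SE 0.33), and Rxrb 9.38% and 7.32%, a difference of -2.06 points (counting SE 0.31). Rxrg made up 1.48% and 1.49%. The FPKM of Rxra was 3.74 times that of Ppara in WT and 4.53 times in KO, so the common partner had a higher level than each PPAR in both libraries.

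Ppargc1a (chromosome 5, 51845488 to 51958964, minus strand) had FPKM values of 2.83 in WT and 1.97 in KO. The ratio was 0.697 with an interval of 0.631 to 0.768, on an estimated 969 and 699 fragments. The log2 difference was -0.50, or -0.26 relative to the median of expressed genes. It was the lowest of the 8 with 0.1 added to each FPKM, while the plain KO/WT ratio was lower for Ppargc1b (0.674). Among the 15727 genes that averaged 0.1 or more, 27.8% were lower still than Ppargc1a.

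Ppargc1b (chromosome 18, 61457790 to 61560085, minus strand) had the lowest level of the 8 genes, with FPKM values of 0.600 in WT and 0.404 in KO. The ratio was 0.674 with an interval of 0.501 to 0.903, on an estimated 116 and 81.2 fragments. The PGC1 sum was 3.43 in WT against 2.37 in KO (ratio 0.693), and Ppargc1a made up 82.5% of it in WT and 83.0% in KO. Both coactivators were lower in KO, and their ratio to each other changed by 0.05 on the log2 scale (counting SE 0.22).

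**Figure D3:**
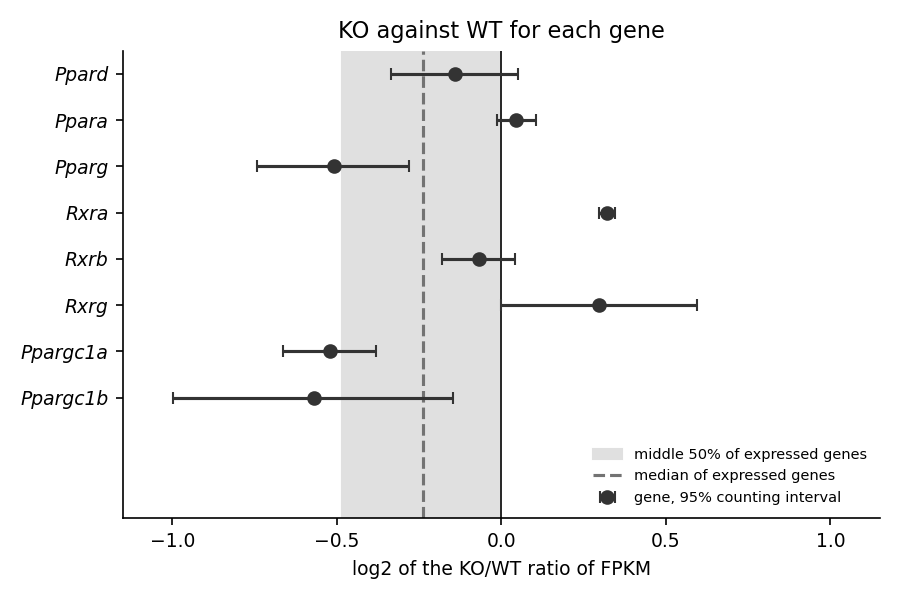
The log2 of the KO/WT ratio of FPKM (horizontal axis) for each gene, with its 95% counting interval. The grey band holds the middle 50% of expressed genes on the log2((KO + 0.1)/(WT + 0.1)) scale and the dashed line their median, -0.24. Rxra and Rxrg lie to the right of the band and Ppara just past its right edge (-0.01). Pparg, Ppargc1a and Ppargc1b lie just past its left edge (-0.48), with intervals that reach into the band.

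The target genes of the receptors were counted in lists of known targets, against the 12.0% of all genes past 2-fold. By direction, 2.08% of all genes were at least 2-fold higher in KO and 9.94% at least 2-fold lower. Of 28 targets of hepatic fatty acid oxidation, 27 were higher in KO, where 74.8% of all genes were lower. At least 2-fold higher were 8 of them, and the median log2 difference was 0.82. Cyp4a10, a fatty acid ω-hydroxylase, had FPKM values of 39.5 in WT and 226 in KO, although reads of the closely related Cyp4a genes may be shared. Fabp1, the liver fatty acid binding protein, was at 835 in WT and 2743 in KO. The gene that was lower was Cat, catalase, at 775 in WT and 569 in KO. Fgf21, a hormone of the fasted liver and 1 of the 8, was at 0.0821 in WT and 1.87 in KO. Its WT level was under the filter of 0.1, so that it was counted only through its KO level. Taken relative to the -0.24 of expressed genes, 15 of the 28 were past 2-fold. On that scale 514 of the 15727 genes that averaged 0.1 or more were at least 2-fold higher and 1080 at least 2-fold lower.

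Of 13 genes known to respond to PPARβ ligands, Ucp3 was listed at 0 in both libraries. Of the other 12, 8 were higher in KO and 4 lower, where 74.8% of all genes were lower, and the median was 0.60. At least 2-fold higher were 3 and at least 2-fold lower 1, where 2.08% and 9.94% of all genes were. The 3 include Fgf21, which passed the filter of 0.1 only through its KO level. Plin2, a lipid droplet coat protein, had FPKM values of 142 in WT and 480 in KO, and Acaa2, a mitochondrial thiolase, 311 and 475. Lpl, lipoprotein lipase, was at 3.54 in WT and 1.55 in KO. This list shares 5 genes with the oxidation list, Cat, Cpt1a, Fgf21, Hadha and Slc25a20.

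Of 16 lipid storage targets of PPARγ, Cidea, Plin1, Adipoq and Aqp7 averaged less than 0.1 and were not counted. Of the other 12, 6 were higher and 6 lower in KO, where 74.8% of all genes were lower, with a median of 0.00. At least 2-fold higher were 5 and at least 2-fold lower 2, where 2.08% and 9.94% of all genes were. The 2 include Cfd, at 0.312 in WT and 0 in KO, which passed the filter only through its WT level. G0s2, an inhibitor of lipolysis, had FPKM values of 12.8 in WT and 80.1 in KO. Plin4 and Plin5 share 1 row, at 14.4 in WT and 32.7 in KO, and are counted as 2 genes. Fabp4 was at 18.1 and 17.4, and Cd36, a fatty acid transporter that macrophages and endothelial cells also express, at 18.1 and 12.9. The median of this list had no settled direction, since it was -0.27 without joint rows, -0.29 without the filter on low FPKM, 0.24 when centred on expressed genes, 0.28 with equal upper quartiles and 0.62 over genes that averaged 1 or more.

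Of 19 targets of the PGC1 coactivators, 15 were lower and 4 higher in KO, where 74.8% of all genes were lower. None passed 2-fold, and the median was -0.25 against -0.24 for expressed genes. Pck1, which makes phosphoenolpyruvate in gluconeogenesis, had FPKM values of 852 in WT and 818 in KO. G6pc, glucose-6-phosphatase, was at 55.3 in WT and 109 in KO. Atp5b, a subunit of ATP synthase, was at 820 and 552, and Cox5b, a subunit of cytochrome oxidase, at 246 and 166. Relative to the median of expressed genes 9 of the 19 were higher.

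Upstream of Ppargc1a, 12 of 13 regulators of its transcription or activity were lower in KO and 1 higher, none by 2-fold, where 74.8% of all genes were lower. Their median was -0.25, against -0.24 for expressed genes, and 5 of the 13 lay above that median. Creb1, the cAMP response factor, had FPKM values of 4.88 in WT and 3.11 in KO, Crtc2, its coactivator in liver, 13.0 and 12.7, and Atf2 11.6 and 8.97. Mef2d, at 8.81 and 8.95, was the higher one. Mybbp1a, a repressor of PGC1α, was at 25.2 in WT and 21.2 in KO.

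**Figure D4:**
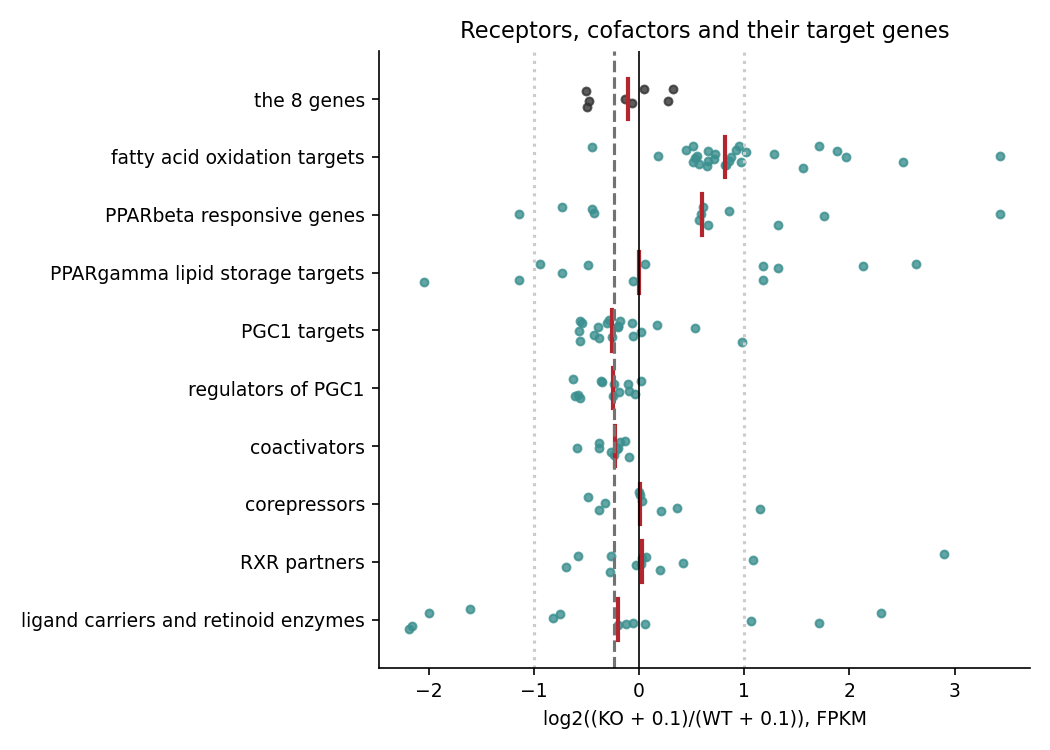
The log2((KO + 0.1)/(WT + 0.1)) of FPKM for the 8 genes and for each gene of 9 lists that averaged 0.1 or more (points), with the median of each list (red bars), the median of expressed genes (dashed line) and 2-fold (dotted lines). The oxidation targets lie to the right (median 0.82), and the PGC1 targets, regulators of PGC1 and coactivators lie around the dashed line (medians -0.25, -0.25 and -0.22).

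Among cofactors that work with the same receptors, all 10 other coactivators were lower in KO, none by 2-fold. For comparison, 74.8% of all genes were lower and 12.0% past 2-fold, 2.08% being higher and 9.94% lower. The median of the 10 was -0.22, against -0.24 for expressed genes. Carm1 had FPKM values of 7.74 in WT and 6.82 in KO, Med1, the mediator subunit that nuclear receptors contact, 7.03 and 6.40, and Pprc1, a relative of the PGC1 genes, 7.20 and 6.27. Cited2, at 5.84 and 3.85, differed most, and relative to the median of expressed genes 5 of the 10 were higher. Of 9 corepressors, 6 were higher and 3 lower in KO, where 74.8% of all genes were lower, with a median of 0.01. Nr0b2, the orphan receptor SHP, was the one past 2-fold, at 15.4 in WT and 34.2 in KO. Ncor1 was at 24.6 and 24.7, and its partner Hdac3 at 19.5 and 13.8.

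Of 13 other receptors that pair with RXR, Vdr was under the filter of 0.1. Of the other 12, 7 were higher and 5 lower in KO, where 74.8% of all genes were lower, with a median of 0.03. At least 2-fold higher were 2 of them, where 2.08% of all genes were. Nr1i3, the receptor CAR, had FPKM values of 35.6 in WT and 75.6 in KO, and Nr4a1, an immediate early gene, 0.678 and 5.72. Nr1h3, the oxysterol receptor LXRα, was at 47.7 and 54.6, Nr1h4, the bile acid receptor FXR, at 31.3 and 30.6, and Rara at 5.70 and 4.69. Rxra was thus more abundant than each of these partners in both libraries.

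Of 15 ligand carriers and retinoid enzymes, Crabp1 and Crabp2 were under the filter of 0.1. Of the other 13, 4 were higher and 9 lower in KO, where 74.8% of all genes were lower. At least 2-fold higher were 3 and at least 2-fold lower 4, where 2.08% and 9.94% of all genes were. The 4 include Aldh1a3, at 0.303 in WT and 0.0319 in KO, which passed the filter only through its WT level. Fabp5, which carries fatty acids to PPARβ, had FPKM values of 29.3 in WT and 6.35 in KO. Cyp26a1, which breaks down retinoic acid, was at 19.7 in WT and 4.85 in KO, while its relative Cyp26b1 was at 0.259 and 1.67. Fabp1 and Fabp2, an intestinal fatty acid carrier at 24.4 in WT and 51.2 in KO, were the other genes at least 2-fold higher. Aldh1a1, which makes retinoic acid, was at 603 and 551, and Dhrs3 at 38.0 and 39.4. Stellate cells store retinoids, and 5 of their 6 markers were lower in KO, while Hgf was at 4.15 in WT and 4.22 in KO. Lrat, which is also counted in this list, was at 3.21 and 1.86. Des was at 1.87 and 1.69, and Col1a1, which differed most of the 6, at 8.56 and 1.75. The part of stellate cells in the values of this list was not tested.

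The promoters were read for the sites that these proteins bind, from the RefSeq table of GRCm38.p6, with 250 bases before and 50 after each start. The table holds 7 of the 8 genes, Ppargc1b being the other. The letters searched on both strands were AGGNCANAGGNCA for the direct repeat, AGGTCA for its unit, which the repeat can contain, TGACGTCA for the cAMP response element and TGACG for its core, which the full element contains. These motifs and the promoters printed were chosen after the matches were seen. The direct repeat was in 0.381% of 32851 promoters, in 0 of the 7 genes and in 1 of 22 oxidation targets, Fabp1. The unit AGGTCA was in 3 of the 7, Pparg, Rxra and Rxrg, against 16.3% of all promoters. The core TGACG was in 4 of the 7, Ppard, Ppara, Rxrb and Ppargc1a, against 20.8%, and the full element was in 0 of the 7, against 1.79%.

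The promoter of Fabp1 (chr6:71149623-71149922, plus strand, NCBIM37) is shown because it is the oxidation target with the direct repeat, in capitals as it reads on the strand printed, 67 to 55 bases before the start. The promoter of Ppargc1a (chr5:51958915-51959214, minus strand, NCBIM37) is shown for the lowest log2 difference of the 8, with the core in capitals, as it reads on the strand printed, 49 to 45 bases before the start. Each was found once, without mismatch, on its chromosome in NCBIM37.
Fabp1: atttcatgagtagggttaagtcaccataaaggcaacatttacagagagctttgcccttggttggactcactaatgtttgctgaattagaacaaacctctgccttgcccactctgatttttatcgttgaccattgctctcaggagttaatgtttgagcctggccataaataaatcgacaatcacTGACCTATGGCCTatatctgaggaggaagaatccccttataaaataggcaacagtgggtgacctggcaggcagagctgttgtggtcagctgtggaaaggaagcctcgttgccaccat
Ppargc1a: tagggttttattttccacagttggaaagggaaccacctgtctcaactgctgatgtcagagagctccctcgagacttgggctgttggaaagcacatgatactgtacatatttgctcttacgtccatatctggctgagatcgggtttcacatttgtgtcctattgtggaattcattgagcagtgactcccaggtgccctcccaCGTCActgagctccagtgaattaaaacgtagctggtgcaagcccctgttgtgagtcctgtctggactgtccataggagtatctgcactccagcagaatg

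A match to these letters is a description of the sequence and not a measured site. Beside them stand the measured levels, with Fabp1 at 835 in WT and 2743 in KO and Ppargc1a at 2.83 and 1.97.

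The genes around Ppard were read as well, since a targeted allele can carry changes in its surroundings. Within 500 kb of the locus lie 29 named loci, 13 of them expressed. None passed 2-fold, where 12.0% of all genes did, 4 were higher and 9 lower in KO, and the median log2 difference was -0.18, against -0.24 for all expressed genes. The nearest, Zfp523, Fance and Rpl10a, had levels of 5.08, 3.31 and 103 in WT and 4.27, 2.97 and 85.5 in KO. Tead3, a transcription factor of the Hippo pathway, was at 3.11 and 3.83, and Fkbp5, a glucocorticoid-induced immunophilin, at 25.6 and 35.5. Srpk1, a splicing kinase, was at 10.4 in WT and 6.42 in KO, and Snrpc at 23.7 and 15.1. The others within 500 kb, D17Wsu92e, Uhrf1bp1, Taf11, Anks1, Mapk14 and Brpf3, had log2 differences of -0.28 to 0.22. Within 1000 kb lie 25 expressed loci, of which 2 were past 2-fold and lower in KO, where 9.94% of that wider set were. They were Hmga1, a chromatin protein of growing cells, at 15.0 in WT and 4.51 in KO, and Ppil1 at 14.3 and 6.04.

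**Figure D5:**
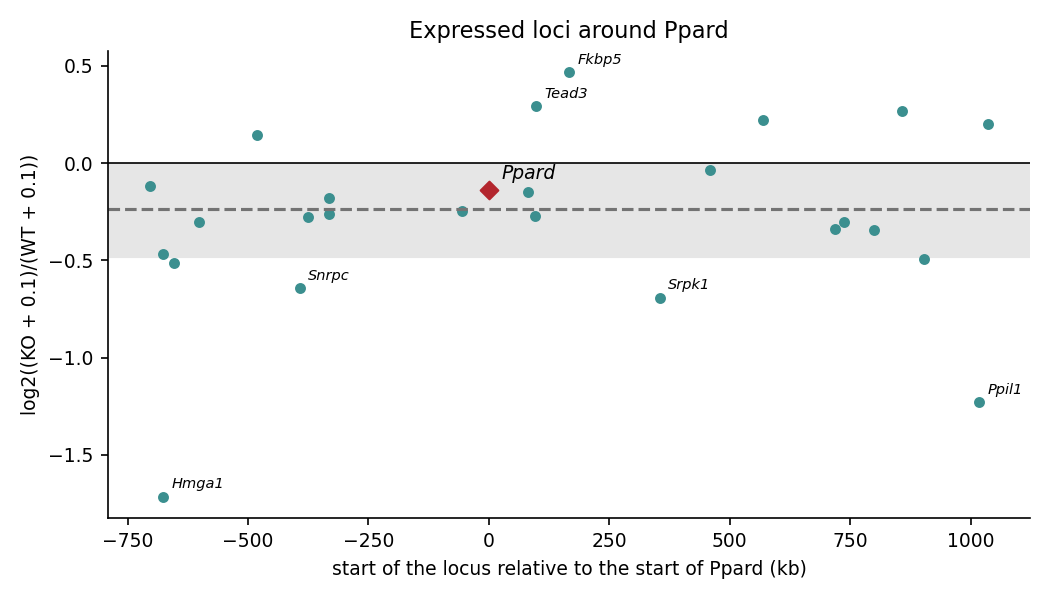
The log2((KO + 0.1)/(WT + 0.1)) of FPKM of the 25 expressed loci whose start lies within 1000 kb of the Ppard locus (points) against their distance from its start (kb), with Ppard as a diamond. The grey band is the middle 50% of expressed genes and the dashed line their median, -0.24; Hmga1 and Ppil1 lie below -1 and the loci nearest to Ppard lie inside the band.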

How the data were processed

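Liver RNA of 1 WT and 1 KO library was made with a TruSeq kit, whose strand setting is not stated. Read type is given as paired end in the labels and single end in the methods. The authors aligned reads to mm9 with TopHat (2.0.0 in the submitters' processing notes) and estimated FPKM with Cufflinks 1.3.0 and Cuffdiff, and the FPKM values were deposited for 38016 loci, of which 21 had too many fragments to be estimated and were left out. The table's columns of fold change, test statistic, p-value, q-value and significance were not used. Rows of a symbol were summed, joint rows were counted for each symbol, and log2((KO + 0.1)/(WT + 0.1)) was computed with pandas 2.3.3. Genes needed a mean FPKM of at least 0.1, or 1 to be called expressed. Fragments were estimated from the lowest pile of FPKM times length (0.012 to 0.027, a window set after the values were seen, on which all fragment numbers, counting SEs and intervals rest) over single-exon genes, and from the longest coding transcript of GENCODE vM1, whose Ppard gene has the same bounds as the table's locus. Intervals came from scipy 1.17.1. Scripts were tested on simulated data. No test across samples was made with 1 library per group. All 8 genes are named; of each list, the 3 highest by mean FPKM and the largest difference in each direction among genes at FPKM 1 or more in each library; markers where a result needs them; and every expressed neighbour within 500 kb of Ppard. A gene that this rule names is not reported here. Fgf21, Cd36, Cfd, Fabp4, Nr4a1, Cyp26a1, Cyp26b1, Aldh1a3, Fabp2 and the neighbours past 500 kb were chosen after their values were seen. The members and lists were chosen with earlier results of these data known.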

Additional observations from a re-analysis of the deposited data

How the results depend on the processing

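Pseudocounts of 1 and 0.01, other scalings, single rows per symbol, omission of joint rows, 1.5-fold and other filters were tried. No member passed 2-fold under any of them, and Ppara, Pparg, Rxra, Rxrg, Ppargc1a and Ppargc1b kept their direction. Centred on the median of expressed genes, 5 members were higher in KO, Ppard was at 0.10, 15 of 28 oxidation targets passed 2-fold and 1 of 19 PGC1 targets did. With equal upper quartiles these values were 5, 0.13, 15 and 1, and the median of expressed genes moved to 0.03. With equal sums of FPKM 1 of 19 PGC1 targets passed 2-fold. Of the 15727 genes, 514 were at least 2-fold higher and 1080 lower when centred. These counts were 538 and 1111 with equal upper quartiles, and 343 and 1497 with equal sums. At 1.5-fold, which 27.8% of all genes passed, the counts were 20 of 28 oxidation targets and 9 of 12 PPARβ responsive genes. They were 9 of 12 PPARγ targets, 9 of 13 ligand carriers and retinoid enzymes, and 3 of 12 RXR partners. Below that share were 1 of 19 PGC1 targets, 2 of 13 regulators of PGC1, 1 of 10 coactivators and 1 of 9 corepressors. Over genes that averaged 1 or more, 7 oxidation targets, 3 PPARβ responsive genes, 6 PPARγ targets and 5 ligand carriers and retinoid enzymes passed 2-fold. The share of all genes at that filter was not computed. Within 1000 kb of Ppard 2 of 25 expressed loci passed 2-fold. The medians of the coactivators and of the ligand carriers changed sign under centring (0.01 and 0.03) and under equal upper quartiles (0.05 and 0.07), as did those of the PGC1 targets and regulators under equal upper quartiles (0.02 for both). No paired analysis was possible because each genotype has 1 library and no test was made, and no library could be left out for the same reason. With an estimated 81.2 fragments in KO, Ppargc1b has the widest interval of the 8 relative to its ratio, and no interval covers variation between animals.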
